A study of Mus musculus with 6 samples.

Results

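Connexins are the proteins of gap junctions, and 6 of the 20 mouse connexin genes are described here: Gjb2, Gjb1, Gja1, Gjc1, Gja4 and Gja5. They were picked by name from a table of 54532 genes, as connexins of hepatocytes (Gjb1 and Gjb2) and of mesenchyme and vessels (Gja1, Gja4, Gja5 and Gjc1), with their values on both days already known. The differences between the days are therefore given as descriptions of these 6 genes, without a test. Fetal livers were dissociated and their eYFP-positive cells sorted for RNA sequencing, all from CD-1 mice of the genotype Sm22-Cre/ROSA26RYFP, 3 libraries at embryonic day 18 (E18) and 3 at embryonic day 16 (E16), each set lettered A, B and C; where 3 values of a day are listed, they stand in that order. Both days share the genotype, so the age alone separates the groups in the labels. The sort follows Cre driven by the Sm22 (Tagln) promoter, a driver used to mark smooth muscle and its mesenchymal relatives, and the labels do not say whether a library held 1 embryo, a litter or a pool. The p-values below for other genes speak only to how far these libraries scatter, part of which could be technical.

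A gap junction is a cluster of channels that join the cytoplasm of neighbouring cells. Connexin subunits form a hexamer in each membrane, and 2 such hexamers dock across the gap to pass ions and small messengers such as calcium, cyclic nucleotides and inositol phosphates. Which connexins a cell makes sets which neighbours it can couple with and what passes. In liver, hepatocytes couple through Gjb1 (Cx32) and Gjb2 (Cx26) and lie beside tight junctions and desmosomes, whereas stellate cells, the mesothelium and other mesenchymal cells use Gja1 (Cx43). Gja4 (Cx37) and Gja5 (Cx40) are best known from arterial endothelium and Gjc1 (Cx45) from smooth muscle and early embryonic heart.

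Deposited values were TPM, each gene's length-corrected share of the transcripts in its library. The reads behind each value could be recovered from the size of 1 read, and they numbered 14587544 to 18281942 in the E18 libraries and 21130196 to 22626885 in the E16 libraries. Transcripts of several cell types were present. A list of 15 hepatocyte genes summed to 396 to 1027 TPM at E18 and 2277 to 9327 TPM at E16, highest in E16 replicate B. The corresponding sums were 254 to 521 TPM at E18 and 29.6 to 77.1 TPM at E16 for 10 smooth muscle genes, and 10403 to 18280 TPM at E18 and 5104 to 6930 TPM at E16 for 10 erythroid genes. Tagln itself stood at 2.86 to 3.37 TPM at E18 and 0.606 to 1.40 TPM at E16. In bulk samples such as these, fewer cells of a type and less RNA per cell cannot be told apart.

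The 6 genes lie on 6 chromosomes of the mm10 build: Gjb2 on chromosome 14 (57098600 to 57104702), Gjb1 on X (101376378 to 101385629), Gja1 on 10 (56377330 to 56402513), Gjc1 on 11 (102799579 to 102819700), Gja4 on 4 (127311421 to 127314039) and Gja5 on 3 (96904693 to 97077416). In 5 of the 6, and in 15 of all 20 connexins, the longest annotated coding sequence lies within 1 exon, the usual build of a connexin gene. Only Gja5 shares exon bases with another gene, 2.87% of its exon length with Gpr89 on the opposite strand. Promoter windows were found for 5 of the 6 in a RefSeq table of 32851 windows (build GRCm38.p6), 1 for each gene except Gjb1, which has 4 starts. The 250 bases before the start are shown for the pair of hepatocyte connexins, for Gja1, present on both days, and for Gja4, found at E18 alone. Capitals mark matches on either strand to 5 motifs, spelled out after the sequences.
Gjb2, chr14:57104703-57104952, - strand: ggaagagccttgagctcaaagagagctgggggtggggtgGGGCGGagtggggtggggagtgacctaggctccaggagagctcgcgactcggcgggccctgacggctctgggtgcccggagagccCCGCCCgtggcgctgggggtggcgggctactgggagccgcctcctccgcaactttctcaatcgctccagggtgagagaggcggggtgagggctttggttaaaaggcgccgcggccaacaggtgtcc
Gjb1 (start 4 of 4), chrX:101383482-101383731, + strand: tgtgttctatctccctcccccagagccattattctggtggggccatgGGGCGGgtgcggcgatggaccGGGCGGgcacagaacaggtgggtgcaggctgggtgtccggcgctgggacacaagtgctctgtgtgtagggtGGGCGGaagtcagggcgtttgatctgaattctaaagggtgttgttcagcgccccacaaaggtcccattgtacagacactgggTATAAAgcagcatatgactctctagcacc
Gja1, chr10:56377050-56377299, + strand: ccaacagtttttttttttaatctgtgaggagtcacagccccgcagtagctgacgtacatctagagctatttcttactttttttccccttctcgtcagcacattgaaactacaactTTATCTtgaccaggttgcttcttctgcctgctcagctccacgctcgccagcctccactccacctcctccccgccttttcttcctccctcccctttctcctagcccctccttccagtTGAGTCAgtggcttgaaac
Gja4, chr4:127314040-127314289, - strand: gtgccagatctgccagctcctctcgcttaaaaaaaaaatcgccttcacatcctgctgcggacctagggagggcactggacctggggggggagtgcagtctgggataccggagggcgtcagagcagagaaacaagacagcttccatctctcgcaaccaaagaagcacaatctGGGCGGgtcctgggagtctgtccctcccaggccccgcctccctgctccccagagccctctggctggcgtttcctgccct
The upstream bases of Gjb2 had a GC content of 69.2% and 2 GC boxes, against a median of 52.4% over all windows. The GC box was searched as GGGCGG, and 35.7% of all windows of the same 300 bases held it. The AP-1 site, bound by Fos and Jun proteins, was searched as TGANTCA and was found in 7.81% of the windows. The TATA box was searched as TATAAA, which 13.6% of the windows held. The site of GATA factors was searched as AGATAA, which 11.2% of the windows held. The T-box site was searched as GGTGTGA, found in 3.98% of the windows and in none of these connexin windows. Start 4 of Gjb1 had 3 GC boxes and a TATA box, and its other 3 starts held none of the 5 motifs. Gja1 had an AP-1 site beginning 19 bases before the start and a GATA site beginning 135 bases before it. Gja4 and Gja5 had 1 GC box each. No match overlapped another, and each is a match of letters in this window only.

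Gjb2 was the connexin with the largest difference between the days. It stood at 0.471, 1.09 and 2.71 TPM at E18, against 15.9, 21.4 and 17.97 TPM at E16. Every E18 library lay below every E16 library, and the lowest E16 value exceeded the highest E18 value. The means were 1.42 ± 1.16 TPM at E18 and 18.4 ± 2.76 TPM at E16 (SD, n = 3 each), an E18 mean of 0.0772 times the E16 mean. The fitted log2 fold change was −3.10 ± 0.38 (SE), on the log2(TPM + 1) scale. The E18 values rest on 5, 12 and 36 recovered reads and the E16 values on 262, 342 and 280.

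Gjb1, which forms mixed channels with Gjb2 in hepatocytes, did not follow it in every library. Its levels were 1.59, 1.79 and 2.01 TPM at E18, against 6.86, 7.41 and 0.724 TPM at E16. E16 replicate C lay below all 3 E18 libraries, on 8 reads, while the same library had 280 reads of Gjb2. The days therefore overlapped for Gjb1, with means of 1.80 ± 0.211 TPM at E18 and 5.00 ± 3.71 TPM at E16 (SD, n = 3 each) and a log2 fold change of −0.79 ± 0.62 (SE). Without E16 replicate C the log2 fold change was −1.54, and without E16 replicate A or B it was −0.45 or −0.40. It took the other sign, 0.71, when a hepatocyte score was a covariate and 0.12 with array weights. The ratio of Gjb2 to Gjb1 was 0.296, 0.608 and 1.34 at E18, against 2.32, 2.89 and 24.8 at E16, so the lowest E16 ratio exceeded the highest E18 ratio.

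**Figure D1:**
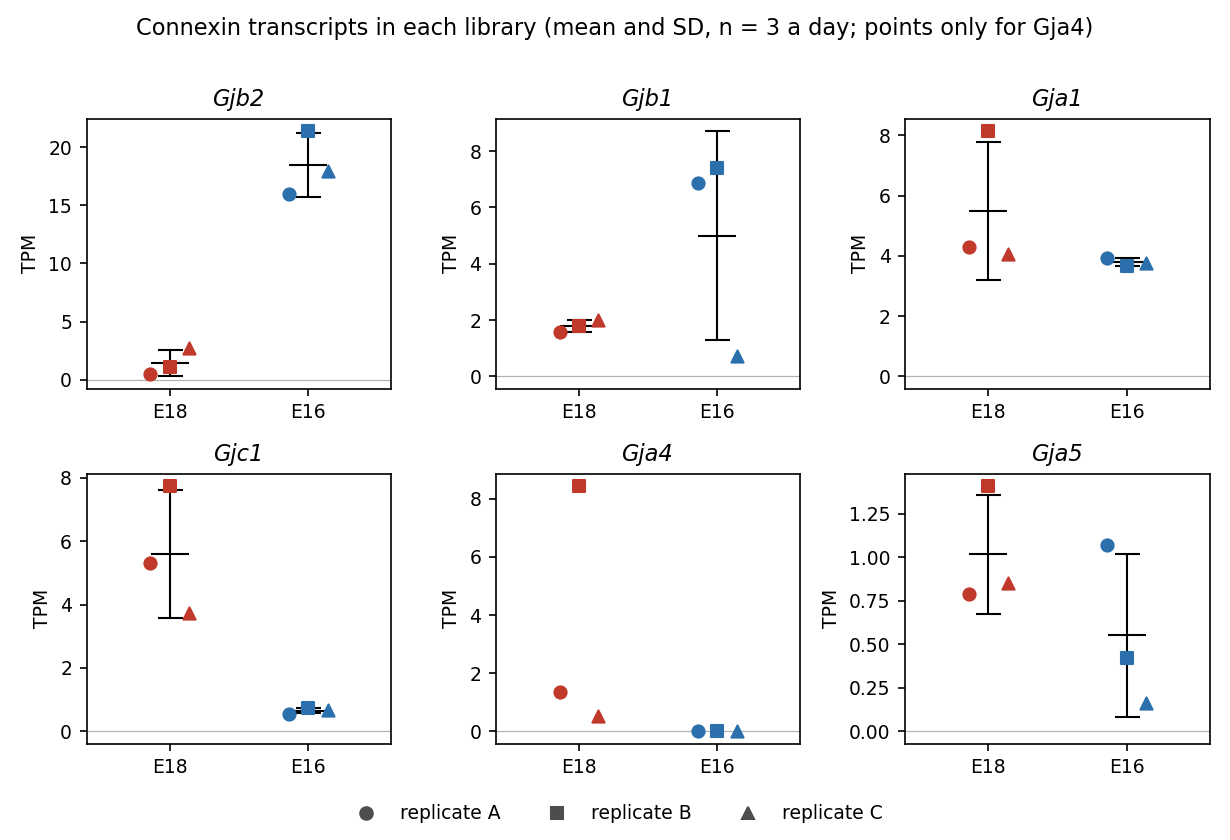
TPM (linear axis, a scale for each gene) of the 6 connexins in each E18 and E16 library, with mean and SD (n = 3 a day) except for Gja4, which is listed at 0 in all E16 libraries. Gjb2 is at 2.71 TPM or below in the E18 libraries and at 15.9 TPM or above in the E16 libraries, while E16 replicate C stands alone for Gjb1 at 0.724 TPM.

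Levels of both genes were set beside the hepatocyte transcripts of the same libraries. Alb, the albumin gene, was at 268, 612 and 684 TPM at E18, against 1655, 5785 and 1287 TPM at E16. Alpha-fetoprotein (Afp) stood at 31.7 to 109 TPM at E18 and 387 to 1499.8 TPM at E16, and transthyretin (Ttr) at 21.4 to 54.6 TPM at E18 and 108 to 568 TPM at E16. Of the 15 hepatocyte genes, all tested, 7 fell and none rose by limma at adjusted p under 0.05, beside 0.387% lower and 3.08% higher of all tested genes, with a median log2 fold change of −2.40 against 0.07 over all tested genes. Per 1000 TPM of the hepatocyte list, Gjb2 was at 1.19, 1.25 and 2.64 TPM at E18, against 5.75, 2.29 and 7.89 TPM at E16. The days overlapped on that scale, where E16 replicate B, with the highest hepatocyte sum, lay below E18 replicate C. Gjb1 per 1000 TPM of the list was at 4.02, 2.06 and 1.96 TPM at E18, against 2.47, 0.794 and 0.318 TPM at E16, again with overlap. The hepatocyte sum was higher in every E16 library than in the E18 ones, as was Gjb2. Within E16 the sum and Gjb1 had the same order, replicate B, then A, then C, and C had the least Gjb1 of all 6 libraries. Gjb2 did not share that order, since replicate C, with the lowest E16 sum, had more Gjb2 than replicate A. With a hepatocyte score as covariate the Gjb2 log2 fold change was −2.10. Their part in the result was not tested further.

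**Figure D2:**
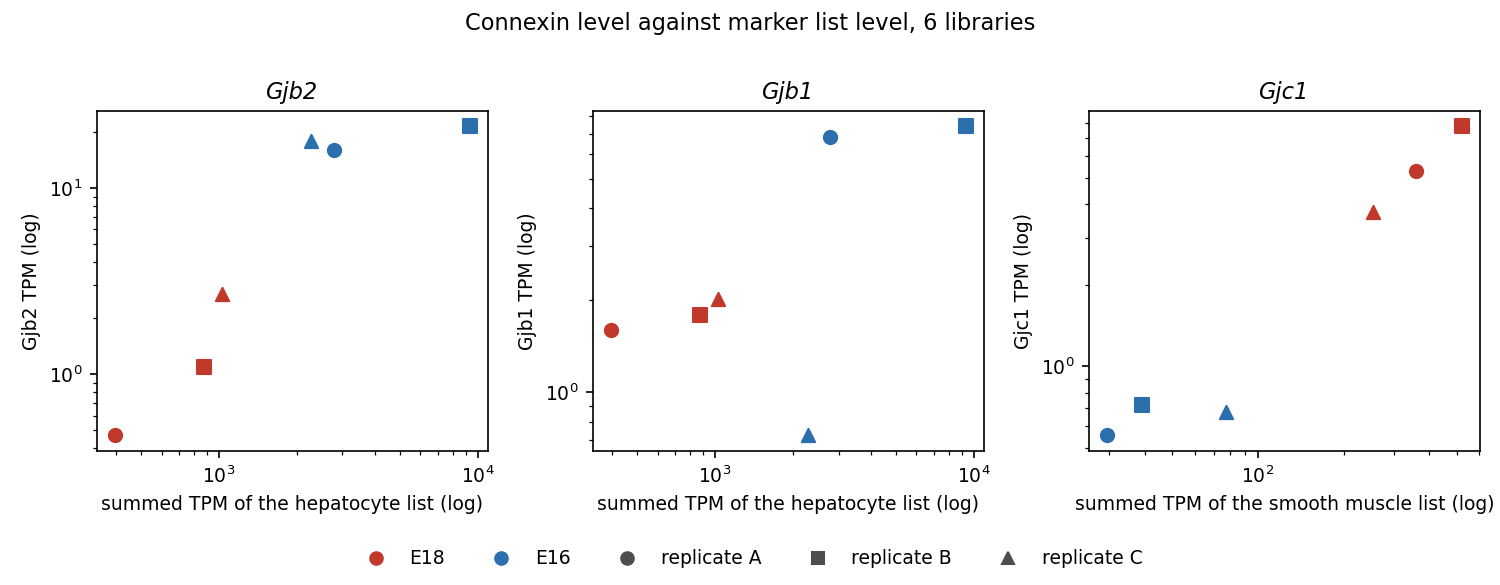
TPM of Gjb2 and Gjb1 against the summed TPM of 15 hepatocyte genes, and of Gjc1 against that of 10 smooth muscle genes, in 6 libraries on log axes; colour marks the day and shape the replicate letter. Gjb2 stays between 15.9 and 21.4 TPM over E16 libraries whose hepatocyte sums run from 2277 to 9327 TPM.

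Gja1, the widespread connexin of mesenchyme, differed little between the days in most libraries. It stood at 4.29, 8.15 and 4.08 TPM at E18, against 3.93, 3.67 and 3.78 TPM at E16. All E18 values were above all E16 values, but E18 replicates A and C exceeded the highest E16 value only slightly, and replicate B stood apart. Means were 5.50 ± 2.29 TPM at E18 and 3.79 ± 0.129 TPM at E16 (SD, n = 3 each), with a log2 fold change of 0.39 ± 0.32 (SE), which was 0.11 without E18 replicate B and 0.06 with quantile normalization. With at least 194 recovered reads in each library, Gja1 was better covered than Gjb1, Gja4 and Gja5.

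Gjc1, the connexin of smooth muscle, was higher in every E18 library. It was at 5.30, 7.74 and 3.73 TPM at E18, against 0.556, 0.722 and 0.679 TPM at E16. The days were far apart relative to the spread within each, with means of 5.59 ± 2.02 TPM at E18 and 0.652 ± 0.0862 TPM at E16 (SD, n = 3 each), an E18 mean 8.56 times the E16 mean, and a log2 fold change of 1.95 ± 0.33 (SE). Gjc1 passed the filter through its E18 values alone, so it had to differ to be fitted. Its ratio to Gja1 was 1.24, 0.950 and 0.914 at E18, against 0.142, 0.197 and 0.180 at E16.

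Smooth muscle transcripts moved with Gjc1. Of the 10 smooth muscle genes 7 rose and none fell by limma at adjusted p under 0.05, beside 3.08% higher and 0.387% lower of all tested genes. Of the 10, Cnn1, Lmod1, Myocd and Synpo2 passed the filter through their E18 values alone, and Lmod1 and Myocd are among the 7. The defining marker Acta2, smooth muscle actin, was at 149.6, 219 and 109 TPM at E18, against 9.87, 11.8 and 35.9 TPM at E16. Myh11, the smooth muscle myosin, was at 12.2 to 36.5 TPM at E18 and 1.27 to 2.46 TPM at E16. Per 1000 TPM of the smooth muscle list, Gjc1 was at 14.8, 14.9 and 14.7 TPM at E18, against 18.8, 18.5 and 8.81 TPM at E16. The days overlapped on that scale. Of 12 stellate cell and pericyte genes 7 rose, of 10 portal fibroblast genes 9 and of 7 mesothelial genes 4, with none lower, again beside 3.08% higher and 0.387% lower of all tested genes. E18 replicate B had the highest sum of each of these 3 lists and the highest Gjc1. For the remaining lists, 1 of 2 tested cholangiocyte genes, 2 of 4 leukocyte genes, 1 of 10 erythroid genes and 0 of 5 megakaryocyte genes rose, and none fell, beside the same shares of all tested genes; 1 of the 2 leukocyte genes that rose passed the filter through its E18 values alone. The part of these cell types in the Gjc1 level was not tested.

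Gja4, an arterial connexin, was found at E18 alone. It stood at 1.34, 8.44 and 0.537 TPM at E18, on 10, 65 and 5 recovered reads, and is listed at 0 in each E16 library. The 3 E18 libraries differed widely, and replicate B held most of the reads. In the E16 libraries 1 read of Gja4 would have been worth 0.0869 to 0.0916 TPM, below every E18 value. No fold is given against a day listed at 0, and the gene missed the filter because 2 libraries reached 1 TPM.

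Gja5, which shares arterial endothelium with Gja4, was low on both days. It was at 0.789, 1.41 and 0.850 TPM at E18, against 1.07, 0.419 and 0.161 TPM at E16, on 6 to 42 reads. E16 replicate A lay above 2 of the E18 libraries, so the days overlapped, with means of 1.02 ± 0.342 TPM at E18 and 0.550 ± 0.469 TPM at E16 (SD, n = 3 each). The difference in mean log2(TPM + 1) was 0.41, and 1.002 with a pseudocount of 0.1, and Gja5 was not fitted because 2 libraries reached 1 TPM.

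The 3 defining endothelial genes were low on both days. Pecam1 was at 0.437, 0.948 and 1.13 TPM at E18, against 0.118, 0.822 and 0.521 TPM at E16. Cdh5, the endothelial cadherin, was at 0.270 TPM or less at E18 and listed at 0 at E16, and the receptor Kdr was at 0.509 TPM or less in all 6 libraries. The members of the list that passed the filter were Egfl7, Eng, Esam and Flt1. They differed in direction, and Flt1 was low at E16, as was Esam in E16 replicates A and B. Egfl7 was at 15.5, 12.5 and 22.5 TPM at E18, against 26.2, 39.2 and 37.6 TPM at E16, lower without overlap (limma adjusted p = 0.0769). Esam was at 5.69, 6.87 and 1.96 TPM at E18, against 0.204, 0.0525 and 1.51 TPM at E16, higher without overlap (limma adjusted p = 0.0915). The receptor Flt1, which passed the filter through its E18 values alone, was at 1.06, 2.35 and 1.30 TPM at E18, against 0.0542, 0.134 and 0.354 TPM at E16 (limma adjusted p = 0.115). Of 12 endothelial genes 4 were tested and 1 rose, Eng, beside 3.08% called higher of all tested genes. Eng is a TGF-beta co-receptor that mesenchymal cells also carry. The summed endothelial list was 95.8 to 141 TPM at E18 and 62.8 to 87.4 TPM at E16, mostly Eng at E18. Of 8 arterial genes 3 were tested and Unc5b rose, where 3.08% of all tested genes were called higher. All 3 were higher at E18 without overlap, beside 18.4% of all tested genes. Sox17, Bmx and Dll4 stayed at 0.922 TPM or less. Efnb2, an arterial ephrin, was at 2.93 to 8.01 TPM at E18 and 1.14 to 2.88 TPM at E16 (limma adjusted p = 0.183). The summed arterial list was 27.9 to 74.9 TPM at E18 and 3.03 to 10.1 TPM at E16, mostly Unc5b at E18. The part of both lists in the Gja4 and Gja5 levels was not tested.

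Ordered by level, the E18 libraries had Gjc1 and Gja1 first at 5.59 and 5.50 TPM, then Gja4, then Gjb1, Gjb2 and Gja5. Gjc1 and Gja1 did not differ beyond their spread, the range of Gjb2 overlapped those of Gjb1 and Gja5, which did not overlap each other, and the range of Gja4 reached from below Gja5 to above Gjc1. The E16 libraries had Gjb2 first at 18.4 TPM, then Gjb1, Gja1, Gjc1 and Gja5, with Gja4 at 0. At E16 the range of Gjb1 enclosed that of Gja1, and the range of Gja5 enclosed that of Gjc1. Only Gjb2 at E16 stood clear of the other 5 in every library.

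The summed TPM of the 6 genes was 13.8, 28.6 and 13.9 at E18, against 28.4, 33.6 and 23.3 at E16. The days overlapped in that sum. For all 20 connexins the sum was 19.5, 35.6 and 15.9 at E18, against 31.3, 34.9 and 26.3 at E16, again with overlap. The 6 held 70.5% to 87.4% of it at E18 and 88.7% to 96.4% at E16. Within the 6, the make-up differed. Gjb1 and Gjb2 together held 15.0%, 10.1% and 33.9% of the sum of the 6 at E18, against 80.4%, 85.7% and 80.2% at E16. The mean share was 19.7% ± 12.6 at E18 and 82.1% ± 3.11 at E16 (SD, n = 3 each), a difference of −62.4 percentage points, and it ran from −69.6 to −57.6 when single libraries were left out. Gja1 held 28.5% to 31.1% at E18 and 10.9% to 16.2% at E16, and Gjc1 26.8% to 38.4% at E18 and 1.96% to 2.91% at E16. These shares follow from the values that chose the genes and add no separate evidence.

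**Figure D3:**
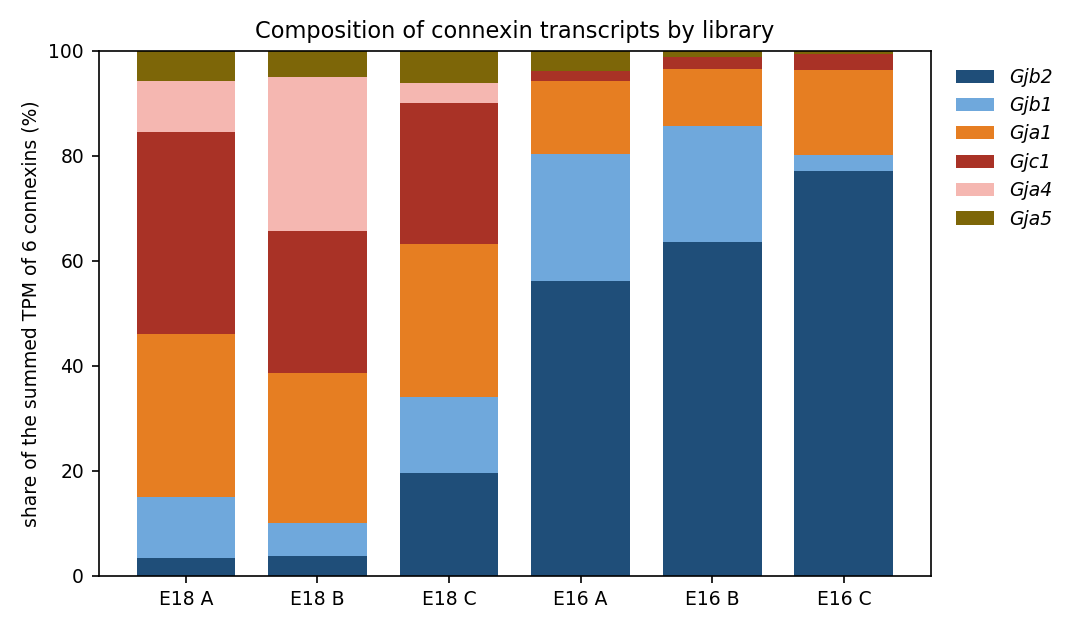
Share (%) of each connexin in the summed TPM of the 6 genes, 1 bar a library, E18 at the left. The blue parts, Gjb2 and Gjb1, fill 80.2% to 85.7% of the E16 bars and 10.1% to 33.9% of the E18 bars.

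Genes with at least 1 TPM in 3 of the 6 libraries, 17824 in all, were fitted with limma on log2(TPM + 1). Of these 618 were called at adjusted p under 0.05 (Benjamini-Hochberg), or 3.47%, with 549 higher and 69 lower at E18. Of the 6 connexins 4 passed the filter, and 2 of those, Gjc1 (higher) and Gjb2 (lower), were among the genes called, beside 3.08% of all tested genes called higher and 0.387% called lower; nothing is read from that count, since the same contrast chose them. Without overlap between the days, 2 of the 4 were higher and 1 was lower, beside 18.4% and 8.05% of all tested genes (26.5% in all), and again nothing is read from it. Dropping E16 library A or C, or E18 library A or B, took the count of 618 to 0, and dropping E16 library B took it to 55.

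Most of the remaining connexins were scarce when taken singly, but as a group they were not negligible at E18. Their summed TPM had a mean of 4.92 at E18 and 2.39 at E16, and the days overlapped in that sum. Of the other 14, 5 were listed at 0 in all 6 libraries, among them Gja3, Gja10, Gjb6 and Gjd2, and 2 passed the filter. Gja6 was at 1.24, 1.95 and 0.0897 TPM at E18, against 2.11, 1.04 and 2.07 TPM at E16, and overlapped (limma adjusted p = 0.623). Gjd3 was at 1.08, 0.784 and 0.865 TPM at E18, on 3 to 4 reads each, and is listed at 0 in each E16 library. Panx1, a pannexin that forms single-membrane release channels, was at 1.54, 4.43 and 2.40 TPM at E18, against 0.874, 1.20 and 1.20 TPM at E16 (limma adjusted p = 0.286). Limma called 0 of the 3 tested connexins and pannexins in this group, beside 3.47% of all tested genes, and 1 had an unadjusted p under 0.05. Voom on recovered reads also called 0, and array weights called 1.

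Some connexin genes lie close together, and only these neighbours were examined. Gjb2 lies 40.5 kb from Gja3 and 18.6 kb from Gjb6, both listed at 0 in every library, including the E16 libraries in which Gjb2 was the leading connexin. Gjb5, in the connexin cluster that holds Gja4, was at 0.658 TPM in E18 replicate A and listed at 0 in the other 5 libraries.

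Most partners that bind, move or degrade connexins did not pass the test. Of 16 such genes 15 were tested, 3 rose and none fell by limma, where 3.47% of all tested genes were called; their median log2 fold change was 0.18 against 0.07. Ccn3, a matricellular protein that binds the Gja1 protein, stood at 6.95, 18.99 and 8.52 TPM at E18, against 0, 0.0525 and 0.0538 TPM at E16. Ccn3 passed the filter through its E18 values alone, so it had to differ to be fitted, and it rose by 3.47 ± 0.41 (log2 ± SE; limma adjusted p = 0.0273). Src, a kinase that phosphorylates the Gja1 protein, was at 12.9, 19.3 and 10.5 TPM at E18, against 1.68, 3.31 and 3.96 TPM at E16, and rose by 1.94 ± 0.35 (limma adjusted p = 0.0376). Cav1, the caveolin that shares membrane rafts with connexins, rose by 1.69 ± 0.32, to 17.1 ± 4.95 TPM at E18, against 4.62 ± 1.61 TPM at E16 (SD, n = 3 each; limma adjusted p = 0.0427). E18 replicate B was highest for all 3 genes, as for the mesenchymal lists. All 3 calls were lost when any library other than E18 replicate C was left out and with the hepatocyte score as covariate. Calls over all tested genes also fell, to 0 to 55 in those leave-out fits and to 0 with that covariate.

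Cadherins, whose contacts precede gap junctions, gave opposite values. Epithelial Cdh1 was at 0.594, 0.335 and 1.15 TPM at E18, against 3.23, 12.9 and 5.84 TPM at E16. The days did not overlap, and the log2 fold change of −2.15 ± 0.48 (SE) did not pass (limma adjusted p = 0.0578). Mesenchymal Cdh2 was at 7.16, 19.3 and 5.74 TPM at E18, against 2.81, 4.95 and 4.94 TPM at E16 (limma adjusted p = 0.265). Tjp1, the scaffold that holds connexin plaques, was at 9.68 ± 3.28 TPM at E18 and 6.71 ± 1.47 TPM at E16 (SD, n = 3 each; limma adjusted p = 0.466). The ubiquitin ligase Nedd4, which marks the Gja1 protein for removal, was at 297 ± 37.1 TPM at E18 and 266 ± 49.9 TPM at E16 (limma adjusted p = 0.676).

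Of 16 transcription factors with known links to connexin promoters 9 were tested, 2 rose and 1 fell by limma, with a median log2 fold change of 1.67 against 0.07 over all tested genes, of which 3.47% were called. Tbx2, a repressor of Gja1 and Gja5 in the heart, was at 24.7, 40.6 and 18.2 TPM at E18, against 2.06, 1.62 and 2.98 TPM at E16, and rose by 3.11 ± 0.34 (log2 ± SE; limma adjusted p = 0.0261). Klf2, a flow-responsive factor of endothelium, was at 19.01, 57.1 and 17.2 TPM at E18, against 1.82, 3.10 and 3.93 TPM at E16, and rose by 2.85 ± 0.48 (limma adjusted p = 0.0353). Hnf4a, a hepatocyte regulator, fell to 0.282, 1.72 and 1.16 TPM at E18, against 7.49, 25.04 and 8.57 TPM at E16, at −2.71 ± 0.52 on the log2 scale (limma adjusted p = 0.0427). The AP-1 genes Fos and Jun had adjusted p of 0.0507 and 0.0783 by limma, with Fos at 298, 635 and 185 TPM at E18, against 54.4, 82.8 and 96.6 TPM at E16. None of the 16 was called without any one library other than E18 replicate C, and without that one 4 were higher and none lower, so the Hnf4a call held in no such fit. Over all tested genes there were 0 to 55 calls without any one of the other libraries, and 664 without E18 replicate C. Smooth muscle and stellate cell transcripts moved with Tbx2 and Klf2, and hepatocyte transcripts with Hnf4a, which is itself on the hepatocyte list; their part in these levels was not tested.

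**Figure D4:**
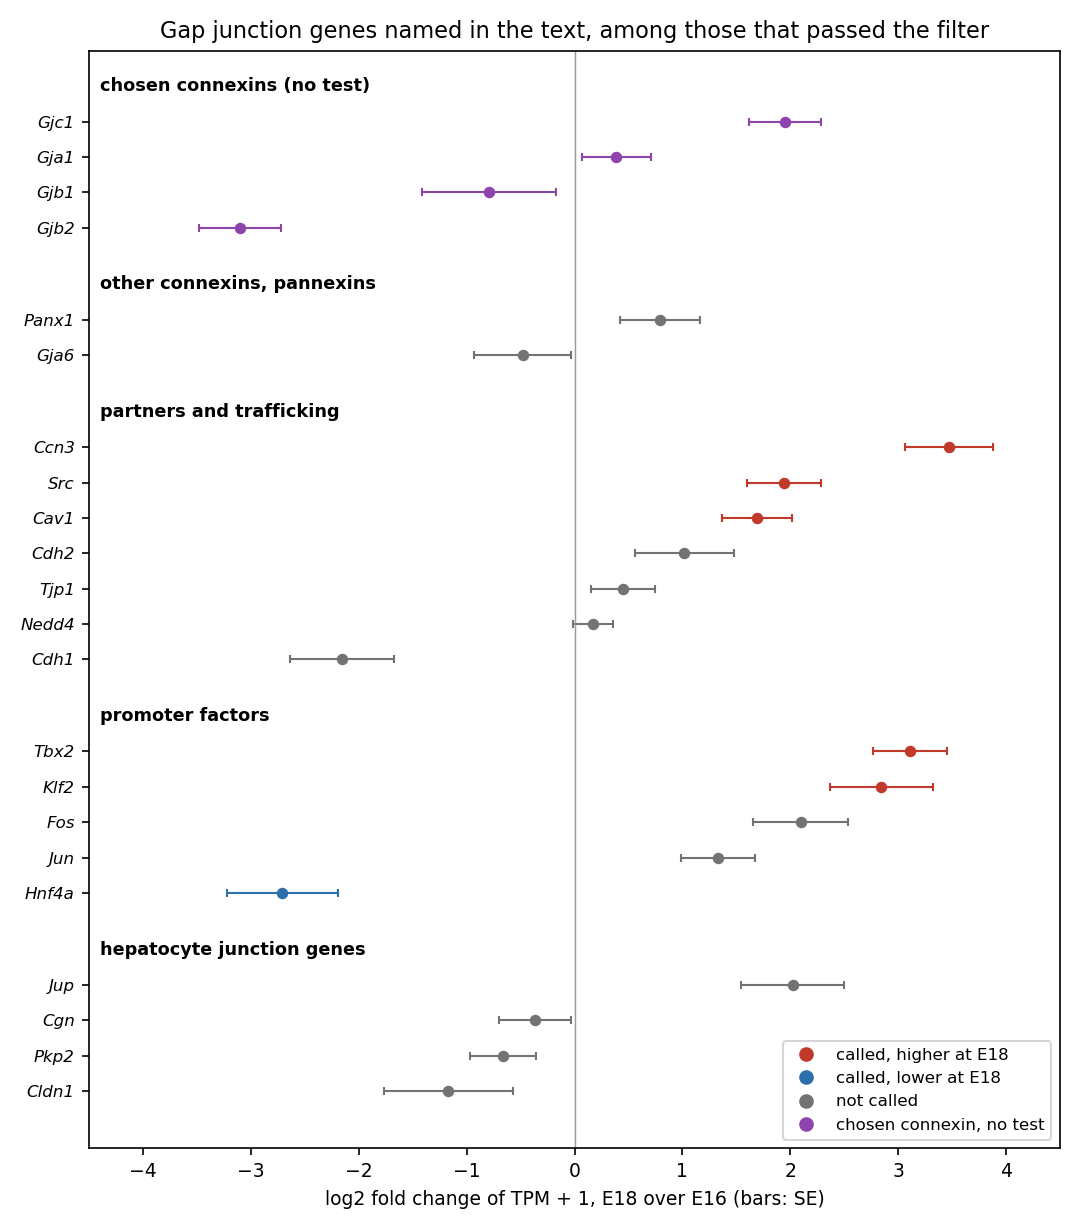
Log2 fold change of TPM + 1, E18 over E16, with SE, for the tested genes named in the text, from the 6 connexins (purple, described without a test) and 4 groups of related genes; red and blue mark genes called higher or lower at E18 by limma. Gjb2 at −3.10 and Gjc1 at 1.95 mark the ends of the purple group.

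Of 11 tight junction and desmosome genes of hepatocytes 6 were tested. Limma called 0 of the 6, beside 3.47% of all tested genes, so nothing is read from that count. At an unadjusted p under 0.05 there was 1, beside 3720 of all 17824, and voom on recovered reads called 1. Without overlap between the days, 1 of the 6 was higher and 3 were lower, beside 18.4% and 8.05% of all tested genes. Their median log2 fold change was −0.33. The one at an unadjusted p under 0.05 was Jup, plakoglobin, which is not limited to hepatocytes, at 7.96, 15.5 and 5.57 TPM at E18, against 0.842, 0.912 and 3.10 TPM at E16 (limma adjusted p = 0.0640). Cldn1, a claudin of tight junctions, was at 0.374, 1.94 and 2.50 TPM at E18, against 2.60, 11.2 and 2.68 TPM at E16 (limma adjusted p = 0.328). Pkp2, a desmosome plaque gene that passed the filter through its E16 values alone, was at 0.498 ± 0.186 TPM at E18 and 1.38 ± 0.365 TPM at E16 (SD, n = 3 each; limma adjusted p = 0.282). Cgn, cingulin of tight junctions, differed by −0.37 ± 0.33 on the log2 scale (limma adjusted p = 0.606). Occludin (Ocln), at 0 to 0.257 TPM in E18 libraries and 0.971 to 2.16 TPM in E16 libraries, missed the filter.

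The genes whose levels followed each connexin most closely over the 6 libraries were taken from 8205 candidates with a mean of at least 10 TPM on 1 day, by Pearson's r of log2(TPM + 1). The 6 points share the split between days and the pull of single libraries, so these r values are descriptions. Gjc1 was closest to Tnxb (r = 0.999), a matrix tenascin, to Ccn2 (r = 0.998), a matricellular gene, and to Fblim1 (r = 0.998), a focal adhesion gene, and 852 candidates had r over 0.9. Gjb2 was closest to Pde3b (r = 0.998), a phosphodiesterase, Tpr (r = 0.998), a nuclear pore gene, and Fbxo10 (r = 0.994), with 349 candidates over 0.9. Pearson's r takes no account of the size of a change. Tpr was at 77.2 to 86.6 TPM at E18 and 99.6 to 104 TPM at E16, a small difference beside that of Gjb2. Tnxb differed more, at 19.5 to 56.5 TPM at E18 and 1.91 to 2.21 TPM at E16. Gja4 was closest to Farp1 (r = 0.998), Nisch and Ift172 (r = 0.995 each), and Gja1 to Rnpc3 (r = 0.993), Tgfbr1 (r = 0.992) and Pofut2 (r = 0.990), which like Gja4 and Gja1 were highest in E18 replicate B. Gja5 was closest to Wdr90 (r = 0.981), Zfc3h1 (r = 0.975) and Primpol (r = 0.973). Gjb1, low in E16 replicate C, was closest to Adpgk (r = 0.954), Ctsa (r = 0.952) and Borcs8 (r = 0.936), and 9 candidates had r over 0.9. No hepatocyte marker of the list was among the 3 closest to Gjb1 or Gjb2, and whether any stood further down was not examined.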

How the data were processed

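The authors deposited TPM for 54532 genes in 6 libraries. Per the submitters' processing notes, the build was mm10 and the tools were HTSeq 0.5.4p3, Bowtie, HISAT2 2.1.0 and FastQC 0.11.7, listed with no role. Strand setting and annotation: not given in the sources used here. Per the labels' protocols, total RNA went into a stranded kit.

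Symbols came from a table that covered 54409 identifiers, and positions and exon lengths from GENCODE M21. TPM multiplied by merged exon length gave whole multiples of 1 read (within 0.05) for 96.8% to 97.1% of values above 0; these reads give depth and a voom alternative. Housekeeping genes were not at 0. Replicate pairs differed by 18.9 to 95.6 in chi-square per degree of freedom, so none looked like 1 library deposited again. Limma 3.58.1 (R 4.3.3) was fitted on log2(TPM + 1) with an intensity trend to 17824 genes with at least 1 TPM in 3 of 6 libraries, 2-sided, with Benjamini-Hochberg adjustment over all of them; this scale understates the change of low genes. An exact permutation test of 3 against 3 cannot go below p = 0.1 and was not used. The fit was tested on simulated data. Alternatives changed the pseudocount, filter, scaling, trend, weights, covariate, replicate block, test and libraries.

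The members and lists were chosen with earlier results of these data known. Some members of the lists, and 1 of the motifs searched, are not reported here. Named were all 6 connexins, tested connexins and pannexins, called members and up to 4 with the smallest p of each list, defining markers and the 3 most alike genes; Gjd3, Cdh2, Tjp1, Nedd4, Jun, Ocln, Bmx, Eng, Egfl7, Esam, Flt1, Unc5b, the smooth muscle genes named for the filter and the neighbouring connexins were added after their values were seen. Figures were drawn with Matplotlib 3.10.9.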

Additional observations from a re-analysis of the deposited data

How the results depend on the processing

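Leaving out single libraries gave 0 to 664 called genes over all genes, 0 to 3 among gap junction partners and 0 to 4 among promoter factors, against 618, 3 and 3 with all 6; at an unadjusted p under 0.05 the 4 of these fits with 0 calls over all genes had 2765 to 3438 genes. Calls over all genes, partners and promoter factors were 0, 0 and 0 without a filter, with the hepatocyte score as covariate and with the letter as a replicate block, with 4571, 1750 and 3195 genes at an unadjusted p under 0.05 in that order. Deviations of same-letter libraries from their day means correlated at r = 0.10 for A, −0.14 for B and −0.12 for C. The letters were not treated as pairs in the main fit. With 3 libraries a day these r values cannot exclude a shared batch. Array weights gave 4316, 5 and 6 calls, with 1 more each among other connexins and pannexins and among hepatocyte junction genes. Voom on recovered reads gave 1446 calls, 5 promoter factors and 1 hepatocyte junction gene. A pseudocount of 5 gave 347 calls and 1 promoter factor, a filter at 5 TPM gave 406 calls, and quantile normalization gave 399 calls and 1 partner. Higher calls were 314 of those 399, against 549 of 618, and 2795 of 4316 with array weights. Over all genes the median log2 fold change was 0.07 as deposited and −0.08 with quantile normalization.

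Log2 fold changes moved with the scale. At a pseudocount of 0.1 they were −3.89 for Gjb2, 2.86 for Gjc1 and 1.002 for Gja5, at a pseudocount of 5 −1.88 for Gjb2 and 0.89 for Gjc1, and with voom −3.92, 2.97 and 1.15. Gjc1 was at 1.604 with quantile normalization. With the hepatocyte score Gjb2 was at −2.10 and Gjb1 at 0.71; the cause was not tested. Gjb2 was negative and Gjc1, Gja1 and Gja5 positive under each of the 19 alternatives. Changing the filter, dropping the intensity trend and adding the replicate block cannot alter a fold change, so those alternatives add nothing to this. Values of Gja4, Gja5 and Gjb1, and of Gjb2 at E18, rest on few reads.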
